A study of Mus musculus with 2 samples.

Results

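The genes described here encode the enzymes of glycolysis and of the pentose phosphate pathway, the transporters that carry glucose in and lactate out, and the phosphatase Pgp. They were taken by symbol from a list of 32 mouse genes, and all 32 were found among the 52550 gene identifiers of the count tables. Aldoa has a second identifier, with 1 count in 3D culture and 2 in 2D culture, which was not added to the first. The libraries were made from poly(A)-selected RNA of RAW264.7 cells, macrophage-like cells of mouse origin that grow as a line since transformation with Abelson virus. The cells were kept without treatment in 3D culture or in 2D culture, each represented by 1 library. How the 3D culture was made, and for how long cells were kept in it, is not stated in the sources used here.

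Glycolysis splits glucose into pyruvate in the cytosol and yields ATP without oxygen, and lactate dehydrogenase turns pyruvate into lactate so that the pathway can go on. The pentose phosphate pathway branches off at glucose 6-phosphate: its oxidative arm makes NADPH, and its non-oxidative arm exchanges sugar phosphates with glycolysis and supplies ribose for nucleotides. In macrophages, glycolysis is known for its part in inflammatory activation and in the response to low oxygen, and NADPH is used both to make reactive oxygen and to defend against it.

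The 3D library held 16652503 counts and the 2D library 14371084, spread over 15777 and 18580 genes with a count. Values are counts scaled with TMM factors (a trimmed mean of gene ratios) to 1000000 counts, written CPM. Each difference is given as a ratio, 3D over 2D culture, with an exact 95% interval for counting error. The intervals hold no spread between cultures, reads that carry no molecular identifier may repeat a molecule, and with 1 library per culture there is no replicate check and no p-value. A gene was measured where its mean reached 1 CPM, which held for 11673 genes. All 11 macrophage markers examined were measured and summed to 9907 CPM in 3D culture and 3440 CPM in 2D culture, although 3 of them stood lower in 3D culture: Ptprc with 49.6 and 135 CPM, Itgam with 16.0 and 21.9 CPM, and Aif1 with 1.11 and 1.92 CPM in 3D and 2D culture. By contrast, 3 T cell markers had no count in either. Hepatocyte markers summed to 316 counts in 3D culture, with 7 of 7 present, against 10 counts in 2D culture, with 3 of 7 present. Their part in the results was not tested. Among liver-restricted enzymes of these pathways, G6pc had 0 counts in both libraries, and Pklr had 1 in 3D culture and 0 in 2D culture.

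Most glycolytic and pentose phosphate genes had higher values in 3D culture. Of the 31 members measured, 23 were at least 2-fold higher in 3D culture, 1 was at least 2-fold lower and 7 lay between, while the same rule took in 18.7% of all measured genes as higher and 20.8% as lower. The median log2 ratio of the members was 1.94, against 0.05 over all measured genes. Ldhb was the only member not measured. In RNA of a whole culture, fewer cells that express a gene and less of its RNA per cell cannot be told apart. The scaling matters for the size of the ratios: with total counts in place of TMM every log2 ratio is 0.60 lower, 20 members were higher by at least 2-fold and 2 lower, beside 5.59% and 36.5% of all genes. With 22 housekeeping-type reference genes set to a median log2 ratio of 0, 18 members were at least 2-fold higher and 5 lower, beside 3.64% and 41.8% of all genes. Those 18 were at least 2-fold higher under each of the 5 scalings tried, and Rpe was at least 2-fold lower under each. Among the 23 at least 2-fold higher under TMM scaling, G6pdx, Pfkp, Pgk1, Pgam1 and Taldo1 were not at least 2-fold higher under each scaling.

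**Figure D1:**
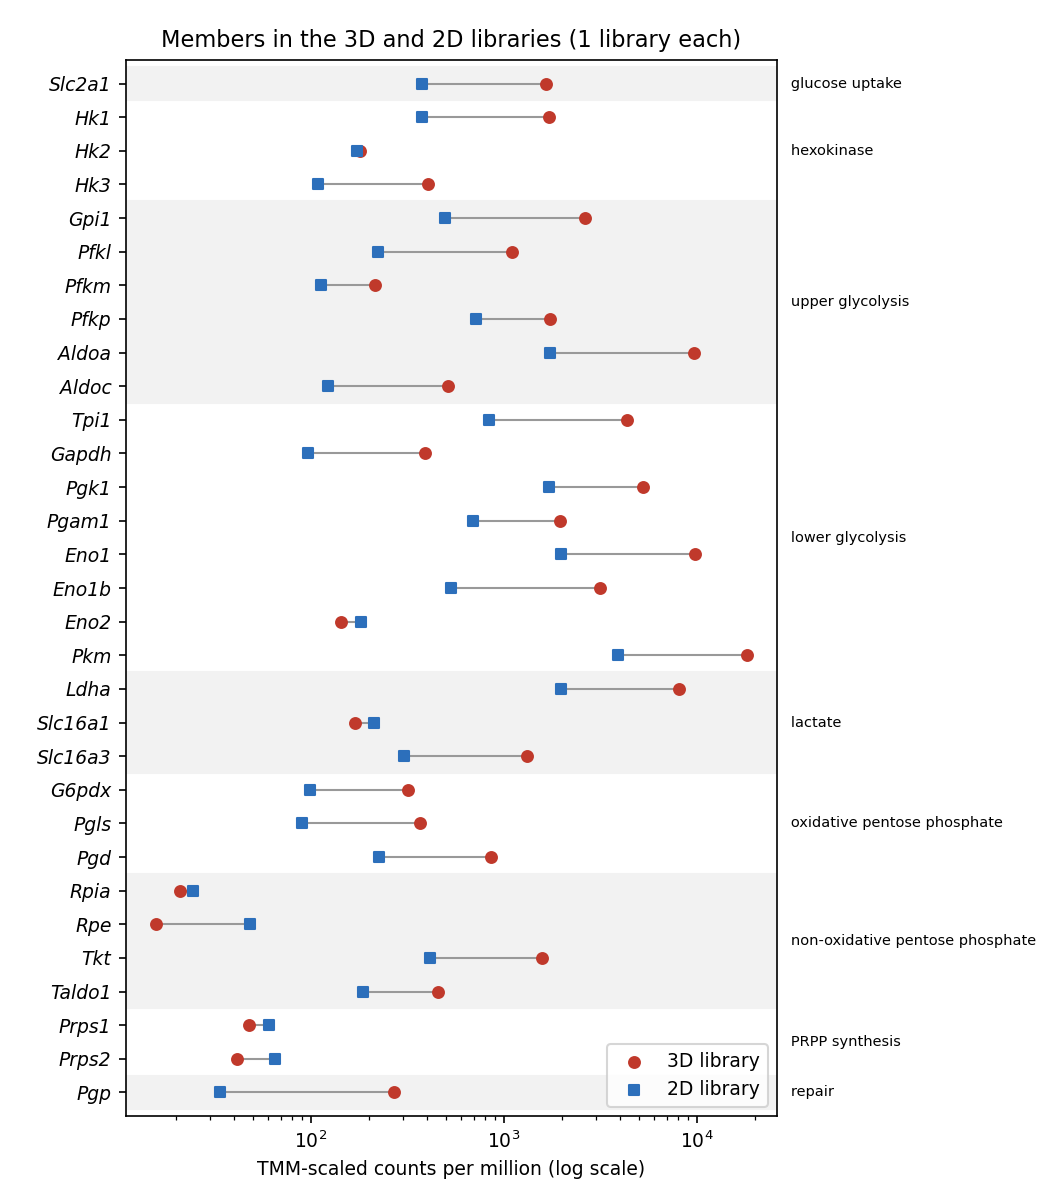
TMM-scaled counts per 1000000 (CPM, log axis) of the 31 measured members, ordered by role, with the 3D library as a circle and the 2D library as a square (1 library each). The circle lies to the right of the square for most enzymes, from Pgp with 268 and 33.8 CPM to Pkm with 18240 and 3898 CPM, and to the left for Eno2, Slc16a1, Rpia, Rpe, Prps1 and Prps2.

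The composition of the transcripts moved with the ratio. Over 11666 measured genes, GC content of the longest transcript explained 32.2% of the variance in log2 ratios, and GC content, exon length and mean expression together for 45.0%. The 23 higher members had a median GC content of 53.6%, the other 8 measured members 45.8% and all measured genes 49.6%. After adjustment for GC content alone, 22 members were at least 2-fold higher and 0 lower, beside 13.0% and 12.5% of all genes. After adjustment for all 3 properties, 6 members were at least 2-fold higher (Pgp, Pgd, Gpi1, Gapdh, Aldoc and Pfkl) and Eno2 was at least 2-fold lower, beside 10.5% and 9.75% of all genes. The median adjusted log2 ratio of the members was then 0.62, against 0.02 over all genes, and 23 of 31 were above 0. The log2 ratio of Pkm, the most abundant member, was 2.23 before and 0.16 after that adjustment, and that of Pgp was 2.99 before and 1.78 after. Adjusted values of the members are given below with their ratios.

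**Figure D2:**
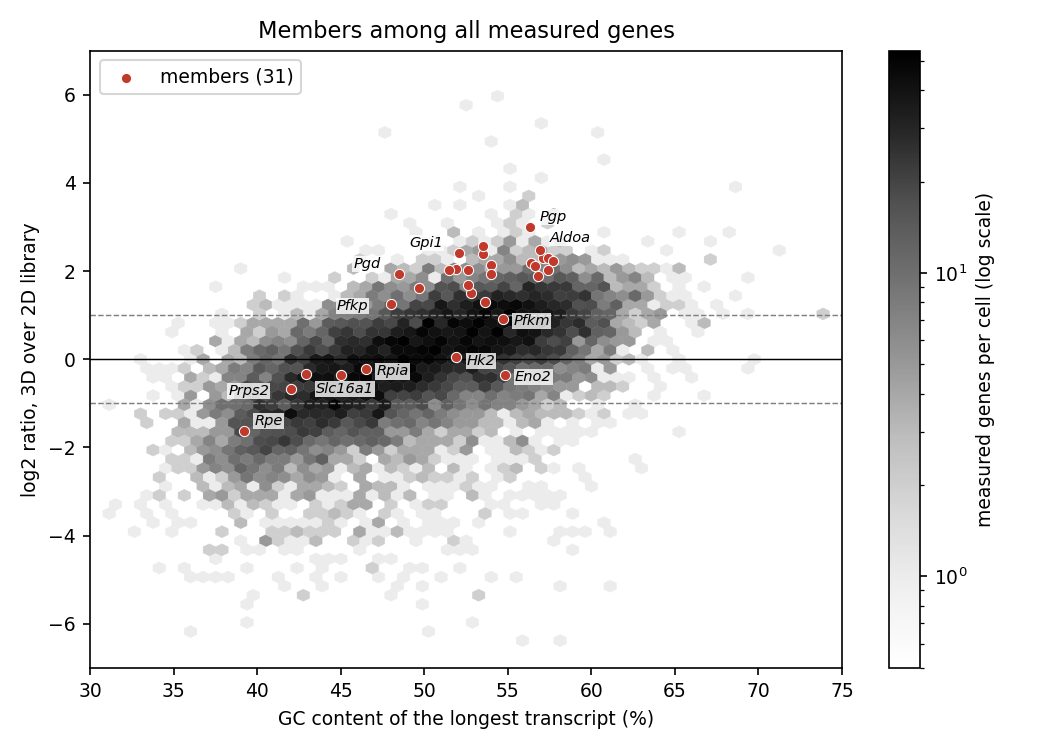
GC content of the longest transcript (x, percent) against the log2 ratio of 3D over 2D culture (y) for all measured genes with a GC value (grey cells, darker for more genes, log colour scale) and for the 31 measured members (red). Dashed lines mark 2-fold; the members with a GC content over 48% lie mostly in the upper part of the cloud, and Rpe, with 39.2%, lies low.

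Slc2a1 encodes GLUT1, the widely expressed transporter through which glucose can enter cells. Slc2a1 (chr4:119108711-119137983) had 1652 CPM in 3D culture and 377 CPM in 2D culture, a ratio of 4.38 (4.26 to 4.50) and 2.89 with total counts. Its adjusted log2 ratio was 0.71, above that of all genes but under 2-fold. Of the other glucose transporters, Slc2a6 had 215 CPM in 3D culture and 95.2 CPM in 2D culture, a ratio of 2.25 (2.12 to 2.40), and Slc2a8 had 37.2 and 17.8 CPM, a ratio of 2.09 (1.81 to 2.41). Their adjusted log2 ratios were -0.095 and 0.15. Slc2a3 (GLUT3) had 54.2 CPM in 3D culture and 42.5 CPM in 2D culture, a ratio of 1.28 (1.15 to 1.41) with an adjusted log2 ratio of 0.64. The level of Slc2a1 over Slc2a3, per kilobase of exon, was 63.0 in 3D culture and 18.4 in 2D culture.

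The hexokinases, which trap glucose in the cell by phosphorylation, did not move together. Hk1, the widely expressed form bound to mitochondria, had 1713 CPM in 3D culture and 375 CPM in 2D culture, a ratio of 4.56 (4.44 to 4.69) with an adjusted log2 ratio of 0.92. Hk3, a form found mainly in myeloid cells, had 404 CPM in 3D culture and 109 CPM in 2D culture, a ratio of 3.70 (3.51 to 3.90) with an adjusted log2 ratio of 0.62. Hk2, the form of muscle and tumours known as a target of hypoxia signalling, had 180 CPM in 3D culture and 174 CPM in 2D culture. Its ratio of 1.04 (0.984 to 1.09) turned to 0.685 with total counts and to 0.608 with reference genes, and its adjusted log2 ratio was -0.57. Within a library, shares do not depend on scaling: per kilobase of exon, Hk2 made up 8.86% of the hexokinase level in 3D culture and 28.3% in 2D culture. Hk1 made up 58.9% and 42.8%, and Hk3 32.2% and 28.9%. As a share of the hexokinase counts, Hk2 held 7.84% (7.55 to 8.15, exact binomial) in 3D culture and 26.4% (25.6 to 27.2) in 2D culture. The ratio of Hk1 to Hk2 was 6.65 in 3D culture and 1.51 in 2D culture, a change of 4.40 times (4.14 to 4.67), and the adjusted log2 ratios of the pair differ by 1.49. No stretch of 100 coding bases of any hexokinase was found in another gene's transcripts.

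The promoters of the hexokinases are shown because these isozymes moved apart. The letters ACGTG are a variant of the core of the sequence that HIF binds, and CACGTG is the E-box core bound by MYC and related factors. Other variants of the HIF core were not searched. The stretches are the 250 bases before the most upstream RefSeq start of the gene on GRCm38.p6, written 5′ to 3′ on the gene's strand, with ACGTG in capitals on either strand (CACGT is its reverse complement). Hk1 lies at chr10:62379909-62380158 and Hk2 at chr6:82774455-82774704, both on the minus strand. Hk1 is transcribed from more than a single start, and others were not searched.
Hk1: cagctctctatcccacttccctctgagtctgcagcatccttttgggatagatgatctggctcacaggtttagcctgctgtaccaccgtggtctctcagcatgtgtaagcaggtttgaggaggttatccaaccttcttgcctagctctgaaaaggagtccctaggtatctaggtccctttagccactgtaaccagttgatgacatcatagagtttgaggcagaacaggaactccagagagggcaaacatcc
Hk2: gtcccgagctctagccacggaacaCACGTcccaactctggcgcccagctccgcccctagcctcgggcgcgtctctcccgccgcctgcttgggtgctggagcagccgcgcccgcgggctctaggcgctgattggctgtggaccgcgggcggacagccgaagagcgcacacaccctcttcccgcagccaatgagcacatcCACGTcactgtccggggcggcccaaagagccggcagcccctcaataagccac
Hk2 holds ACGTG 2 times and Hk1 0 times, and the promoter of Hk3, not printed, holds it 1 time, so the letters occur both in the isozyme with the lowest ratio and in an isozyme with a ratio of 3.70. A match is a description of these letters and not a bound site.

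From glucose 6-phosphate to the split into triose phosphates, 5 of 6 members were at least 2-fold higher, beside 18.7% of all genes, and 3 of 6 after adjustment, beside 10.5%. Gpi1, the isomerase that makes fructose 6-phosphate, had 2616 CPM in 3D culture and 495 CPM in 2D culture, a ratio of 5.28 (5.16 to 5.41). Its adjusted log2 ratio of 1.27 stayed over 2-fold. Phosphofructokinase, the committed step of glycolysis, is built from liver-type (Pfkl), muscle-type (Pfkm) and platelet-type (Pfkp) subunits. Pfkl had 1094 CPM in 3D culture and 222 CPM in 2D culture, a ratio of 4.92 (4.75 to 5.10) with an adjusted log2 ratio of 1.01. Pfkp had 1722 CPM in 3D culture and 719 CPM in 2D culture, a ratio of 2.40 (2.35 to 2.45), which was 1.58 with total counts. Pfkm had 213 and 113 CPM, a ratio of 1.89 (1.78 to 2.00) that did not reach 2-fold, and -0.14 as an adjusted log2 ratio. The make-up of the subunit RNA therefore differed between libraries. Pfkl made up 46.0% of the phosphofructokinase level per kilobase in 3D culture and 27.6% in 2D culture, Pfkp 36.1% and 44.4%, and Pfkm 17.9% and 28.0%. Pfkl and Pfkp differ in GC content, with 57.1% and 48.0%, and their adjusted log2 ratios of 1.01 and 0.93 differ by 0.08, so the change of 2.05 times in Pfkl over Pfkp was not left after adjustment. Pfkl over Pfkm, with GC contents of 57.1% and 54.7%, was 2.61 times higher in 3D culture (2.44 to 2.79), with adjusted log2 ratios 1.14 apart.

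Aldolase cleaves fructose 1,6-bisphosphate. Aldoa, the form of muscle and most other cells, had 9600 CPM in 3D culture and 1729 CPM in 2D culture, a ratio of 5.55 (5.48 to 5.62). Aldoc, the brain form, had 511 CPM in 3D culture and 123 CPM in 2D culture, a ratio of 4.16 (3.96 to 4.37). Both were higher, and Aldoa made up 95.5% of the aldolase level per kilobase in 3D culture and 94.0% in 2D culture. The adjusted log2 ratio was 0.40 for Aldoa and 1.08 for Aldoc, so the order of this pair turned with the adjustment.

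**Figure D3:**
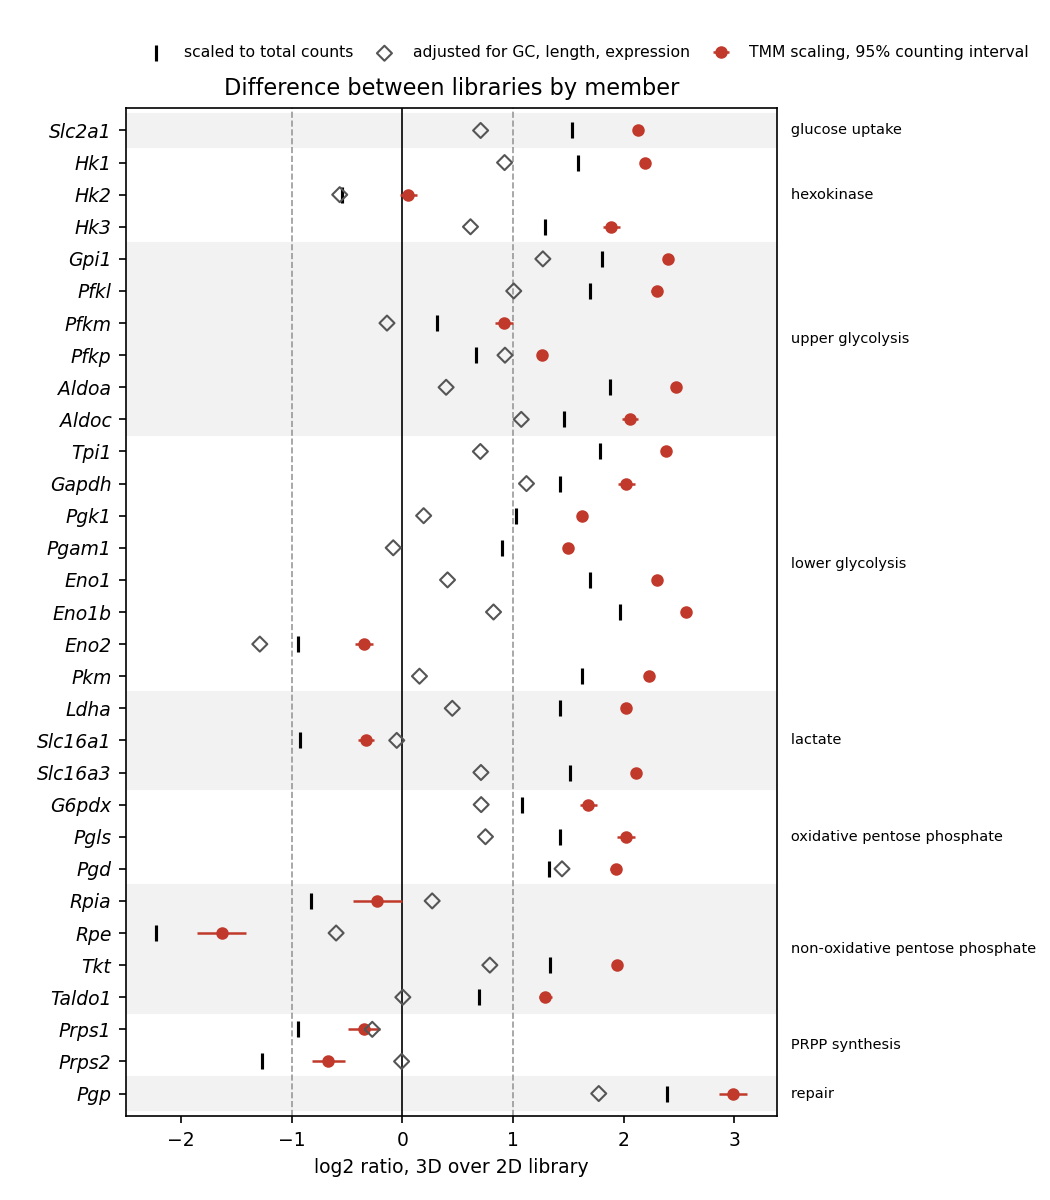
Log2 ratio of 3D over 2D culture for each measured member under TMM scaling (red point, bar for the exact 95% counting interval), scaled to total counts (black tick) and adjusted for GC content, exon length and expression (open diamond). Dashed lines mark 2-fold; Pgp lies farthest right at 2.99 and Rpe farthest left at -1.63.

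In the lower part of glycolysis, where ATP and NADH are made, 7 of 8 members were at least 2-fold higher, beside 18.7% of all genes. After adjustment 1 of 8 was higher and 1 lower, beside 10.5% and 9.75% of all genes. Tpi1, which interconverts the triose phosphates, had 4335 CPM in 3D culture and 832 CPM in 2D culture, a ratio of 5.21 (5.12 to 5.31). Pgk1, which makes the first ATP of the pathway, had 5266 CPM in 3D culture and 1704 CPM in 2D culture, a ratio of 3.09 (3.05 to 3.13). Pgam1, the mutase that follows, had 1944 CPM in 3D culture and 688 CPM in 2D culture, a ratio of 2.83 (2.77 to 2.89). Pgk1 and Pgam1 thus had smaller ratios than their neighbours in the pathway: Pgam1 over Tpi1, per kilobase, was 0.623 in 3D culture and 1.15 in 2D culture. With GC contents of 52.8% and 53.5%, these had adjusted log2 ratios of -0.082 for Pgam1 and 0.71 for Tpi1. The adjusted log2 ratio of Pgk1 was 0.19. Pkm, the pyruvate kinase that makes pyruvate and ATP, was the most abundant member, with 18240 CPM in 3D culture and 3898 CPM in 2D culture, a ratio of 4.68 (4.64 to 4.72). By level per kilobase it ranked 8 among all genes in 3D culture and 25 in 2D culture. Its adjusted log2 ratio was 0.16. Its splice forms, M1 and M2, are not separated in counts per gene. Gm49759, an unclassified transcript on the same strand that shares 15.3% of the exon bases of Pkm, had 179 counts in 3D culture and 2242 in 2D culture.

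Enolase, the step before pyruvate kinase, divided between its genes. Eno1, the form of most cells, had 9720 CPM in 3D culture and 1977 CPM in 2D culture, a ratio of 4.92 (4.86 to 4.98). Eno1b, a near-identical gene on chromosome 18, had 3150 CPM in 3D culture and 533 CPM in 2D culture, a ratio of 5.91 (5.78 to 6.04) with an adjusted log2 ratio of 0.82. Eno2, the neuronal form that also appears in hypoxic cells, stood lower by under 2-fold, with 144 CPM in 3D culture and 183 CPM in 2D culture, a ratio of 0.787 (0.743 to 0.832). Of the level of Eno1, Eno1b and Eno2 per kilobase, Eno2 made up 0.869% in 3D culture and 5.62% in 2D culture. The ratio of Eno1 to Eno2 was 59.1 in 3D culture and 9.46 in 2D culture, a change of 6.25 times (5.90 to 6.62). With GC contents of 57.4% and 54.8%, their adjusted log2 ratios were 0.41 for Eno1 and -1.29 for Eno2. Eno2 was the only member at least 2-fold lower after the adjustment. None of its coding stretches of 100 bases was found in another gene.

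**Figure D4:**
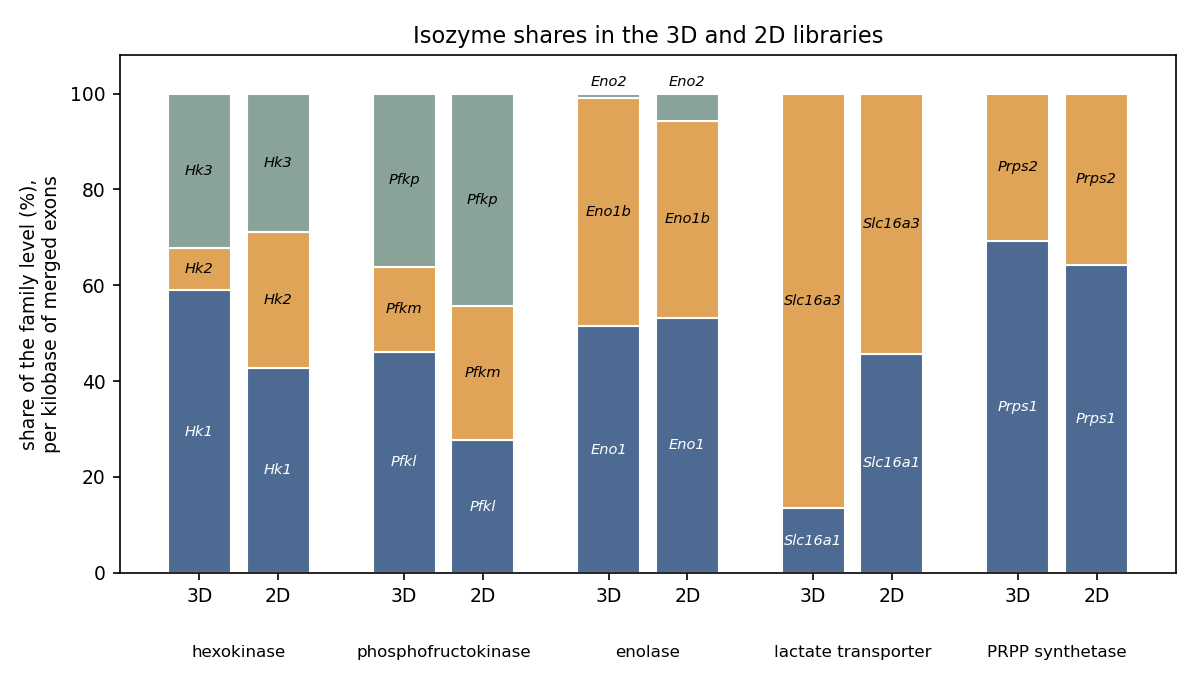
Share of each isozyme in the level of its family (percent, counts per kilobase of merged exons), 3D library left of 2D library in each pair. Families hold listed members only, so Eno3 and Prps1l3 are left out. Hk2, Eno2 and Slc16a1 take smaller shares in 3D culture: 8.86% and 28.3% for Hk2, 0.869% and 5.62% for Eno2, and 13.4% and 45.6% for Slc16a1 in the 3D and 2D libraries.

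Gapdh, the enzyme that makes NADH and a standard reference gene, had fewer counts than its neighbours: 391 CPM in 3D culture and 96.1 CPM in 2D culture, a ratio of 4.07 (3.85 to 4.30) with an adjusted log2 ratio of 1.12. Its near-identical copies held the rest. Transcripts of 215 other genes, 209 of them pseudogenes, matched Gapdh with at least 90% identity over at least 50% of their length, and 93.9% of the 100-base windows of its coding sequence occur in another gene. The pseudogene Gm13394 (chr2:28933610-28934609) had 98121 counts in 3D culture and 25403 in 2D culture, Gm5559 had 15993 and 3177, and Gm7336 had 2100 and 661, against 5293 and 1700 for Gapdh itself. Copies took 95.7% of the summed counts in 3D culture and 94.6% in 2D culture. Summed with its copies, Gapdh had 123562 counts in 3D culture and 31515 in 2D culture, a ratio of 5.12 (5.06 to 5.19), close to that of Tpi1. The treatment of reads with several matches is not stated in the sources used here, so the count of Gapdh alone is uncertain as a level.

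Coding stretches of 80 bases show how alike the genes and their copies are, with the base that differs in capitals. The stretch covers coding bases 384 to 463 of Gapdh (chr6:125161715-125166467, minus strand) and 686 to 765 of Eno1 (chr4:150236721-150248879), with the aligned bases of Gm13394 and of Gm4735 (chr2:80837141-80838442), as GENCODE transcripts of mm10 give them.
Gapdh: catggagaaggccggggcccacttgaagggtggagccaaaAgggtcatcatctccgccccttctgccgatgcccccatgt
Gm13394: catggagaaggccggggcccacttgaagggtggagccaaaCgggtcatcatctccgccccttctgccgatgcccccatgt
Eno1: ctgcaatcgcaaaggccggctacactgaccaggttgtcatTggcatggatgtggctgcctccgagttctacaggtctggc
Gm4735: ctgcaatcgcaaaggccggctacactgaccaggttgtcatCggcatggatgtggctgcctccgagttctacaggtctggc
Over the whole alignment, 1 of 999 bases differed between Gapdh and Gm13394, and 5 of 1302 between Eno1 and Gm4735.

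Other members were touched by copies to different degrees. Gm4735, which matched both Eno1 and Eno1b, had 35356 counts in 3D culture and 8351 in 2D culture. Eno1, Eno1b and all their copies together had 211176 counts in 3D culture and 53013 in 2D culture, a ratio of 5.21 (5.16 to 5.26), which lies between the ratios of Eno1 and Eno1b. All 100-base coding windows of Pgk1 and of Pgam1 also occur in a pseudogene, but those copies held 0.755% and 0.930% of the summed counts in 3D culture, and 0.666% and 1.02% in 2D culture. Gm6560, a copy of Pkm, had 2153 counts in 3D culture and 479 in 2D culture, 98.4% identical. For 20 of 32 members no 100-base coding window was shared.

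**Figure D5:**
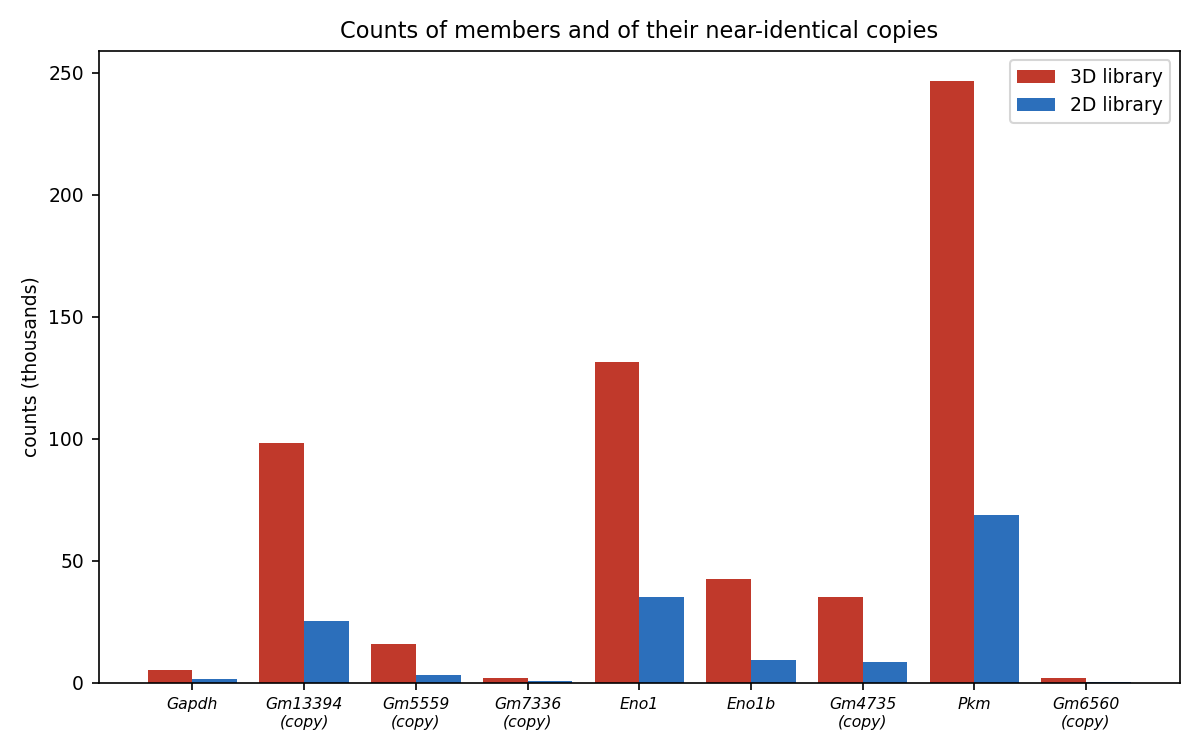
Deposited counts (in units of 1000, linear axis from 0) of Gapdh, Eno1, Eno1b and Pkm and of the near-identical copies with the most counts, 3D library left of 2D library. Gm13394, with 98121 and 25403 counts, stands far above Gapdh, with 5293 and 1700, whereas Gm6560 is small beside Pkm.

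Lactate genes also divided by isozyme. Ldha, the lactate dehydrogenase subunit that favours making lactate, had 8059 CPM in 3D culture and 1984 CPM in 2D culture, a ratio of 4.06 (4.01 to 4.11) with an adjusted log2 ratio of 0.45. Ldhb, the heart-type subunit, had 0 counts in both libraries, which allows up to 0.222 CPM in 3D culture and 0.170 CPM in 2D culture. Ldhb could thus hold at most 0.00338% of the lactate dehydrogenase counts in 3D culture and 0.0105% in 2D culture (exact binomial). Slc16a3 (MCT4), the lactate exporter of glycolytic cells, had 1317 CPM in 3D culture and 305 CPM in 2D culture, a ratio of 4.32 (4.19 to 4.46). Slc16a1 (MCT1), which carries lactate in either direction, had 169 CPM in 3D culture and 213 CPM in 2D culture, a ratio of 0.796 (0.756 to 0.839). Slc16a3 made up 86.6% of the level of this pair per kilobase in 3D culture and 54.4% in 2D culture. The ratio of Slc16a3 to Slc16a1 was 6.47 in 3D culture and 1.19 in 2D culture, a change of 5.43 times (5.11 to 5.77). These genes differ in GC content, with 56.6% for Slc16a3 and 42.9% for Slc16a1, and the adjusted log2 ratios of 0.71 and -0.05 are 0.76 apart, against 2.44 before adjustment.

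Promoters of the lactate genes are shown by the same rule as for the hexokinases, all on the plus strand: Ldha at chr7:46845554-46845803, Slc16a3 at chr11:120948817-120949066 and Slc16a1 at chr3:104638414-104638663.
Ldha: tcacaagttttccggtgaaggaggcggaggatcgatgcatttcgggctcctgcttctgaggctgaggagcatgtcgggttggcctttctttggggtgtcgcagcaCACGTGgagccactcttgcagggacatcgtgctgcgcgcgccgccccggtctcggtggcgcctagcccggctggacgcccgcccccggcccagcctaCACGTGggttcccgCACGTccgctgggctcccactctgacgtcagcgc
Slc16a3: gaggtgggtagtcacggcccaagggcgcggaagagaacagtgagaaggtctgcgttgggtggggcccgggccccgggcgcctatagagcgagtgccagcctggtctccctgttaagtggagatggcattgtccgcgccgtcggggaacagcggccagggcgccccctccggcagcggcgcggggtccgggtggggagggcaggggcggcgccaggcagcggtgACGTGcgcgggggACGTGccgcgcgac
Slc16a1: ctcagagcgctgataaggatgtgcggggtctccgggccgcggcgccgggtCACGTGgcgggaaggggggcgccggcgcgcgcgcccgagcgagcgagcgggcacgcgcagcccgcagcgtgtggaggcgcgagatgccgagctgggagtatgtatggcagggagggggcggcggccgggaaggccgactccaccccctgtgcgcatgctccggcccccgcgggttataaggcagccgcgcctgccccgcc
Ldha holds ACGTG 5 times, counted on both strands, of which 4 lie in 2 copies of CACGTG, a palindrome that holds ACGTG on each strand. Slc16a3 holds ACGTG 2 times, and Slc16a1 also 2 times, within a single CACGTG. Here the exporter with the high ratio and the transporter with the low ratio both hold the letters. Of 31 members with a promoter in the table, 9 (29.0%) held ACGTG, namely Slc2a1, Hk2, Hk3, Pfkm, Pgk1, Pgam1, Ldha, Slc16a1 and Slc16a3. The letters occurred in 22.6% of the promoters of 8721 measured genes and in 16.5% of all 27025 in the table. ACGTG was in 6 of 22 promoters (27.3%) of members at least 2-fold higher and in 3 of 9 (33.3%) of the others. CACGTG was in 3 members (9.68%), with 8.76% of measured and 6.04% of all genes, and the TATA letters TATAAA were in 1 (3.23%), Eno2, with 5.87% and 13.0%. Both other motifs were also searched on either strand.

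All 3 genes of the oxidative arm of the pentose phosphate pathway were at least 2-fold higher under TMM scaling, beside 18.7% of all genes. After adjustment 1 of 3 was at least 2-fold higher, beside 10.5% of all genes. With reference genes, the ratio of G6pdx was 1.88. G6pdx, the rate-limiting dehydrogenase that makes the first NADPH, had 316 CPM in 3D culture and 98.6 CPM in 2D culture, a ratio of 3.21 (3.03 to 3.40). Pgls, which opens the lactone, had 365 CPM in 3D culture and 90.1 CPM in 2D culture, a ratio of 4.05 (3.83 to 4.29) with an adjusted log2 ratio of 0.75. Pgd, which makes the other NADPH and releases carbon dioxide, had 857 CPM in 3D culture and 225 CPM in 2D culture, a ratio of 3.80 (3.67 to 3.94). Pgd had an adjusted log2 ratio of 1.44, second among the members to Pgp, at a GC content of 48.5%. At the branch point, G6pdx competes with Gpi1 for glucose 6-phosphate. The level of G6pdx over Gpi1, per kilobase, was 0.253 in 3D culture and 0.417 in 2D culture, a change of 0.607 times (0.572 to 0.645). The GC contents were 52.6% and 52.1%, and the adjusted log2 ratios were 0.71 for G6pdx and 1.27 for Gpi1, in the same order. Ikbkg overlaps 13.6% of the exons of G6pdx on the opposite strand, with 1344 counts in 3D culture and 998 in 2D culture, and Fam129c shares 20.6% of the exons of Pgls on the same strand, with 4 and 111 counts.

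Under TMM scaling, the non-oxidative arm split between its transferases and its pentose phosphate isomerases. Tkt, the transketolase, had 1575 CPM in 3D culture and 411 CPM in 2D culture, a ratio of 3.83 (3.73 to 3.93). Taldo1, the transaldolase, had 455 CPM in 3D culture and 186 CPM in 2D culture, a ratio of 2.45 (2.35 to 2.56), or 1.62 with total counts. Rpe, the epimerase that makes xylulose 5-phosphate, was 3.10-fold lower (2.66 to 3.62), with 212 counts in 3D culture and 858 in 2D culture. It was the only member at least 2-fold lower. Rpia, the isomerase that makes ribose 5-phosphate, had 284 counts in 3D culture and 434 in 2D culture, a ratio of 0.855 (0.734 to 0.996). Tkt over Rpe, per kilobase, was 42.6 in 3D culture and 3.59 in 2D culture. The GC content was 54.0% for Tkt and 39.2%, the lowest of all members, for Rpe. The adjusted log2 ratios were 0.79 for Tkt, 0.00 for Taldo1, 0.27 for Rpia and -0.60 for Rpe. The order of Taldo1 and Rpia thus turned with the adjustment. Kansl1l overlaps 17.9% of the exons of Rpe on the opposite strand and had 65 counts in 3D culture and 368 in 2D culture.

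The synthetases Prps1 and Prps2 join ribose 5-phosphate to pyrophosphate, which makes phosphoribosyl pyrophosphate (PRPP) for nucleotides. Prps1 had 645 counts in 3D culture and 1073 in 2D culture, a ratio of 0.786 (0.711 to 0.867). Prps2 had 557 counts in 3D culture and 1156 in 2D culture, a ratio of 0.630 (0.568 to 0.697), and was over 2-fold lower with total counts, at 0.416. Neither was at least 2-fold lower under TMM scaling, and the adjusted log2 ratios were -0.27 for Prps1 and -0.01 for Prps2. The copy Prps1l3 had 584 counts in 3D culture and 1043 in 2D culture, and shares 7.6% of the 100-base coding windows of Prps1. The level of Gpi1 over Prps2, per kilobase, was 38.1 in 3D culture and 4.55 in 2D culture.

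Pgp had the highest ratio of all members. It is a phosphatase that removes phosphoglycolate and side products of glycolytic enzymes that would inhibit the pathway. Pgp (chr17:24470392-24473110) had 268 CPM in 3D culture and 33.8 CPM in 2D culture, a ratio of 7.95 (7.29 to 8.69) and 5.25 with total counts. Its adjusted log2 ratio of 1.78 was also the highest of the members. No near-identical copy and no overlapping exon of another gene was found for it. Pgp over Pkm, per kilobase, was 0.0271 in 3D culture and 0.0159 in 2D culture, a change of 1.70 times (1.56 to 1.85).

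The members together took a larger part of the RNA in 3D culture. Per kilobase of exon, the 32 genes made up 4.79% of the level of all genes in 3D culture and 1.99% in 2D culture. The 17 glycolytic enzymes made up 3.85% and 1.54%, and the 7 pentose phosphate enzymes 0.176% and 0.101%. By step, the share in 3D culture over that in 2D culture was 4.56 for Pgp, 2.91 from Gpi1 to aldolase, 2.51 for Slc2a1, 2.40 from Tpi1 to Pkm, 2.21 for the lactate genes, 2.10 for the oxidative arm, 1.90 for hexokinase, 1.53 for the non-oxidative arm and 0.418 for PRPP synthesis. In the 3D library the most abundant members per kilobase, in counts per 1000000 over all genes, were Pkm with 8397, Aldoa with 7594, Ldha with 5607 and Pgk1 with 5404. In the 2D library these had 3132, 2387, 2409 and 3051, so Pgk1 stood next to Pkm there. Near-identical copies are left out of these levels. In 3D culture Gapdh itself had 218, with 95.7% of its summed counts in copies. Eno1 had 4161 there and Eno1b, counted apart, 3864. The places of Gapdh and of Eno1 with Eno1b in this order are therefore uncertain. The least abundant measured members were Rpe with 11.6 and Rpia with 9.02 in 3D culture, against 62.6 and 18.4 in 2D culture.

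Of 68 further genes of the pathway, listed for their known roles, 48 were measured, of which 11 were higher by at least 2-fold and 2 lower, beside 18.7% and 20.8% of all genes, and their median log2 ratio was 0.22, against 0.05 over all genes. After adjustment, 5 were higher and 3 lower, beside 10.5% and 9.75%. The highest 6, ordered by whichever end of the interval lies nearest to 1, were those of Pgm1, which links glycogen to glucose 6-phosphate, the muscle glycogen synthase Gys1, the galactokinase Galk1, the MCT chaperone Bsg, the pyruvate dehydrogenase kinase Pdk2 and the glucose 6-phosphatase G6pc3. Pgm1 had 711 CPM in 3D culture and 138 CPM in 2D culture, a ratio of 5.16 (4.94 to 5.40), and Gys1 had 564 and 119 CPM, a ratio of 4.73 (4.50 to 4.96). These had adjusted log2 ratios of 1.51 and 1.08. Bsg, which brings MCT1 and MCT4 to the membrane, had 1560 CPM in 3D culture and 400 CPM in 2D culture, a ratio of 3.90 (3.80 to 4.01), with an adjusted log2 ratio of 0.08. Galk1 had a ratio of 4.64, Pdk2 of 4.01 and G6pc3 of 2.80. Their adjusted log2 ratios were 0.40 for Galk1, 1.71 for Pdk2 and 0.31 for G6pc3, so Galk1, Bsg and G6pc3 were under 2-fold after adjustment. At the low end, Pfkfb2, which sets the level of the phosphofructokinase activator fructose 2,6-bisphosphate, had 67 counts in 3D culture and 344 in 2D culture, 3.93-fold lower (3.02 to 5.18) and at -1.08 in adjusted log2 ratio. Its relatives Pfkfb1, Pfkfb3 and Pfkfb4 had ratios of 0.779, 1.10 and 1.16. The sperm form Gapdhs had 3 counts in 3D culture and 39 in 2D culture, a ratio of 0.101 (0.0199 to 0.316), with an adjusted log2 ratio of -3.19. With 0.22 CPM in 3D culture and 2.2 CPM in 2D culture, Gapdhs passed the filter only through the 2D library. Pdp2 and Pdp1, the phosphatases that switch pyruvate dehydrogenase on, had ratios of 0.502 and 0.571, the glucose uptake inhibitor Txnip 0.608 and Pgm2l1 0.616. None of these 4 was 2-fold lower under TMM scaling, and each was with total counts. The adjusted log2 ratios diverged, with -1.33 for Txnip, which was then at least 2-fold lower, -0.57 for Pdp2, 0.70 for Pdp1 and 0.69 for Pgm2l1.

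Beside Ldha, some genes that use pyruvate in mitochondria are given for their values. Pdha1, the catalytic subunit of pyruvate dehydrogenase, had 76.7 CPM in 3D culture and 77.1 CPM in 2D culture, and its inhibitory kinase Pdk1 had 138 and 139 CPM. The pyruvate carrier subunits Mpc1 and Mpc2 had ratios of 0.608 (0.339 to 1.06) and 1.18 (1.03 to 1.34). Pyruvate carboxylase, Pcx, was at least 2-fold higher, with 151 CPM in 3D culture and 56.9 CPM in 2D culture, a ratio of 2.66 (2.46 to 2.87) with an adjusted log2 ratio of 0.41. Ldha over Pdha1, per kilobase, was 118 in 3D culture and 29.0 in 2D culture, a change of 4.08 times (3.76 to 4.43). With GC contents of 51.5% and 45.5%, the adjusted log2 ratios differ by 0.31. Among isozymes outside the list, Eno3 had 593 counts in 3D culture and 615 in 2D culture. Its level per kilobase was 58.0 in 3D culture and 80.4 in 2D culture, against 70.35 and 156 for Eno2. Counts in 3D and 2D culture were 25 and 27 for Pgam2, 179 and 174 for Pgam5, and 18 and 16 for Eno4. Hkdc1 had 1 and 3, Slc16a8 1 and 8, and Ldhd 2 and 4. Ldhc and Tktl1 had 1 count in 3D culture and 0 in 2D culture, and Pgk2, Ldhal6b, Slc16a7 and Tktl2 had none in either.

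Factors known to act on these genes showed no common direction. Hif1a, the oxygen-regulated factor that drives many glycolytic genes and is controlled mainly through its protein, had 243 CPM in 3D culture and 569 CPM in 2D culture, 2.34-fold lower (2.25 to 2.43) and at -0.85 in adjusted log2 ratio. The HIF prolyl hydroxylases Egln3 and Egln1 were higher, with ratios of 3.13 (3.04 to 3.23) and 2.32 (2.15 to 2.50) and adjusted log2 ratios of 0.46 and 0.22. With total counts, Egln1 had a ratio of 1.53. Myc had 28 counts in 3D culture and 18 in 2D culture, and Epas1 had 11 and 21, which leaves wide intervals. Nfe2l2, the factor NRF2 that acts on pentose phosphate genes, had a ratio of 0.881 (0.828 to 0.937), and the glucose sensor Mlxip 0.702 (0.638 to 0.772).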

How the data were processed

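Libraries were made from total RNA of RAW264.7 cells with a stranded poly(A) kit, per the labels' protocols. The authors deposited raw read counts for each Ensembl gene, from reads trimmed with Trimmomatic, aligned to mm10 with HISAT2 and counted with HTSeq, per the submitters' processing notes. Versions, the strand option, the treatment of reads with several matches and the read length are not stated there, so genes that overlap or have near-identical copies are uncertain. Of 52550 identifiers, 52403 (99.7%) matched GENCODE M21, which gave symbols, positions, lengths and GC content.

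Counts were scaled by edgeR 4.0.16 (R 4.3.3) with TMM factors, 0.813 (3D) and 1.23 (2D). Genes were taken as measured at a mean of at least 1 CPM with more than 3 counts in a library. Ratios have exact Clopper-Pearson 95% intervals conditional on the summed counts (scipy 1.17.1), and changes of a ratio between genes have Poisson intervals on a log scale. A library at 0 was set to a floor of 3 counts. A ratio of at least 2 was called a difference of size. No test was possible with 1 library per culture. The adjusted log2 ratio is the residual on natural cubic splines (4 degrees of freedom, patsy 1.0.2) of GC content, exon length and mean expression over 11666 genes, and removes biological differences along these properties too. Levels are counts per kilobase of merged exons. Copies were found with BLAST+ 2.17.0 in GENCODE transcripts, and promoters come from a RefSeq table on GRCm38.p6 that held 31 of 32 members. Alternatives were scaling by DESeq2 1.42.0, by total counts, by the upper quartile and by reference genes, filters, a pseudocount, other size rules, thinning, the adjustments, lengths and copies summed. The code was checked on simulated counts.

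Members and lists were chosen with earlier results of these data known. All members are described. Of the other pathway genes, the 6 highest and 6 lowest ratios and all isozymes of member families were to be named, and of the copies up to 6 with the most counts. Some of these genes are not reported here. Mpc1, Mpc2, Pcx, Pdha1, Pdk1, Pfkfb1, Pfkfb3, Pfkfb4, Slc2a3, Slc2a6 and Slc2a8 were named beyond that rule, after their values were seen.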

Additional observations from a re-analysis of the deposited data

How the results depend on the processing

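No paired analysis was possible because each culture method has 1 library and the labels give no replicate numbers, so no library could be left out either. DESeq2 and upper quartile scaling, the pseudocount, calls by the interval bound, and thinning kept the counts of members and of other pathway genes at least 2-fold different within 1.5 times. With total counts, 2 members were at least 2-fold lower, and 5 other pathway genes were higher and 8 lower, beside 657 and 4292 of all genes. With reference genes, 5 members were lower, and 5 other pathway genes were higher and 10 lower, beside 429 and 4933 of all genes. At 1.5-fold, 24 members were higher and 2 lower, and 15 other pathway genes were higher and 7 lower, beside 3701 and 3552 of all genes. At 4-fold, 15 members were higher and 0 lower, and 4 other pathway genes were higher and 1 lower, beside 260 and 779 of all genes. Without a filter, 4 other pathway genes were lower, 3939 of all genes were lower and the members' median exceeded the all-gene median by 2.04; at a mean of at least 5 CPM these were 1 gene and 1.81.

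After adjustment for GC content, length and expression, 6 members and 5 other pathway genes were higher, beside 1227 higher and 1138 lower of all genes, the median difference was 0.59 and Pgam1 turned to -0.082. The log2 ratios of Hk2, Pfkm and Rpia also changed sign. After adjustment for GC content alone, 0 members were lower, 7 other pathway genes were higher and 2 lower, beside 1514 and 1462 of all genes, and the median difference was 1.36. The log2 ratios of 5 members then changed sign: Hk2, Slc16a1, Rpia, Prps1 and Prps2. Slc16a1 went from -0.33 to 0.56 and Prps2 from -0.67 to 0.34. The cause was not tested. Lengths and copies set the shares. With the longest transcript, and then with no length, the shares in the 3D and the 2D library were 5.85% and 20.6%, then 7.84% and 26.4%, for Hk2. For Pfkl they were 51.8% and 32.8%, then 36.1% and 21.1%. For Eno2 they were 0.779% and 4.88%, then 1.10% and 6.79%, and 0.617% and 4.09% with copies summed. For Slc16a1 they were 11.2% and 40.6%, then 11.4% and 41.1%. All members made up 6.35% and 2.58%, then 6.21% and 2.23%, and 5.73% and 2.29% with copies summed. Each of these shares kept its order between the libraries. With 14371084 counts in the smaller library, depth limits mainly Rpe, Rpia, Prps1, Prps2 and the genes with under 50 counts.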

Other observations

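The pseudogene Gm8483 (chr14:14447661-14448944), named after its values were seen, is 94.3% identical to Eno1 over its length. It had 844 counts in 3D culture and 34 in 2D culture, a ratio of 32.4 (23.0 to 47.2) among copies. Eno1 itself had a ratio of 4.92.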
